A study of Homo sapiens with 24 samples.

Results

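The imprinted H19 and IGF2 locus was examined in the peak lists of UMUC1 cells, an established human bladder cancer cell line, as a window of 261 kb on chromosome 11 (hg19, 1960 to 2221 kb). Within it H19 was taken to span 2016 to 2019 kb and IGF2 2150 to 2171 kb. The window was chosen on measured values, because it holds a strongly enriched UTX site, and the UTX values below therefore describe it and test nothing. Every peak or region overlapping the window was a member, and there were 329 of 1483402 over the 18 lists. The lines were stable and carried a pSIN-puro construct in common. The construct of the EV line was empty, that of the WT line held wild-type UTX, and that of the HEAA line held UTX with the changes H1146A and E1148A in its catalytic domain. The labels name no clone. Cells of all lines were harvested 3 days after plating. Each line had 1 list for UTX, MLL4, H3K4me1 and H3K27me3 and 2 numbered libraries for H3K27ac. Values from single lists carry no replicate error, and the read depth of every library is unknown.

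H19 and IGF2 are neighbouring imprinted genes. H19 gives a long noncoding RNA from the maternal copy, and IGF2 gives insulin-like growth factor II, a secreted growth factor, from the paternal copy. A control region upstream of H19, methylated on the paternal copy and bound by CTCF on the maternal one, decides which of the genes can use enhancers that they share, several of which lie beyond the 3′ end of H19. UTX, also called KDM6A, removes methyl groups from H3K27 and works in a complex with MLL3 or MLL4, enzymes that place H3K4me1, the mark of enhancers. H3K27ac marks active enhancers and promoters, and H3K27me3 marks Polycomb-repressed chromatin. The peak lists do not separate the parental copies, and no expression values were used here. In the RefSeq gene table (GRCh38.p14, used for order only) the genes run LSP1, TNNT3, MRPL23, MRPL23-AS1, H19, IGF2, INS, TH and ASCL2 in the direction of rising coordinates.

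H19 is on the minus strand in that table, so coordinates below its span lie beyond its 3′ end and coordinates above it lie upstream of its start. Its transcript also carries the microRNA gene MIR675. The mature products are shown because they are defined by sequence and sit inside one of the genes described here, with the seed, bases 2 to 8, in capitals and both taken from RefSeq (GRCh38.p14).
hsa-miR-675-5p: uGGUGCGGagagggcccacagug
hsa-miR-675-3p: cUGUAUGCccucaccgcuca
The arms have different seeds and are 23 and 20 bases long. An hg19 sequence of the UTX site was not used here.

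UTX was called at a single strong site near H19, in both lines that carried a UTX construct and not in EV. The site, chr11:2011213-2011660, was 448 bp wide and lay 4.34 kb from the H19 span, on its 3′ side, and 138 kb from the IGF2 span. In WT the peak covered chr11:2011227-2011545 with 11.3-fold enrichment over the caller's background, the order 23 of 2566 peaks by fold, and a −log10 q of 34.2. In HEAA it covered chr11:2011213-2011660 with 12.3-fold enrichment, the order 15 of 2855, and a −log10 q of 30.02. The EV list held 31 UTX peaks in the genome and 0 in the window. Fold and q values are the authors' own, and ranks were taken within a list. Where folds of different lists are set side by side, they describe the calls and test nothing, since depth is unknown.

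By the mean of its ranks in the WT and HEAA lists, the site was number 8 of 1691 UTX sites called in both lines and not in EV, that is, in the top 0.473%. It was the first of 88 such sites on chromosome 11. Just ahead of it stood chr9:90381661-90382013 (11.3-fold in WT, 12.5-fold in HEAA) and just behind it chr19:50718225-50718847 (12.6-fold and 11.1-fold). The next UTX sites on chromosome 11 were 62.3 kb below and 212 kb above it. Both lay outside the window. The WT peaks there were chr11:1948452-1948826 (6.74-fold), 11.2 kb below the window's lower edge, and chr11:2223627-2223970 (8.20-fold), 2.63 kb above its upper edge. In HEAA these neighbours had 5.63-fold and 4.87-fold enrichment.

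MLL4, the H3K4 monomethyltransferase of the UTX complex, was called at the same place. The WT peak covered chr11:2011241-2011519 with 8.45-fold enrichment (order 75 of 898) and the HEAA peak chr11:2011302-2011521 with 9.13-fold enrichment (order 86 of 1125). The EV list, with 133 peaks in the genome, had none in the window. The summits of the UTX and MLL4 peaks in WT and HEAA fell within 41 bp of each other. An MLL4 peak in WT and in HEAA but not in EV was found at 276 of the 1691 UTX sites (16.3%), so the site shared this pattern with a minority of them. With 1 list per line these differences have no replicate check. The EV lists of both proteins were the shortest of the 3 lines.

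HEAA had 1 further UTX peak between H19 and IGF2, and no other UTX or MLL4 peak was called in the window. It covered chr11:2098552-2098891 with 3.66-fold enrichment and a −log10 q of 4.06, and stood at 2628 of 2855 in its list. It had no MLL4 peak in any line. It was among the weakest of its list, and with a minimum −log10 q of 5 it was not called.

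**Figure D1:**
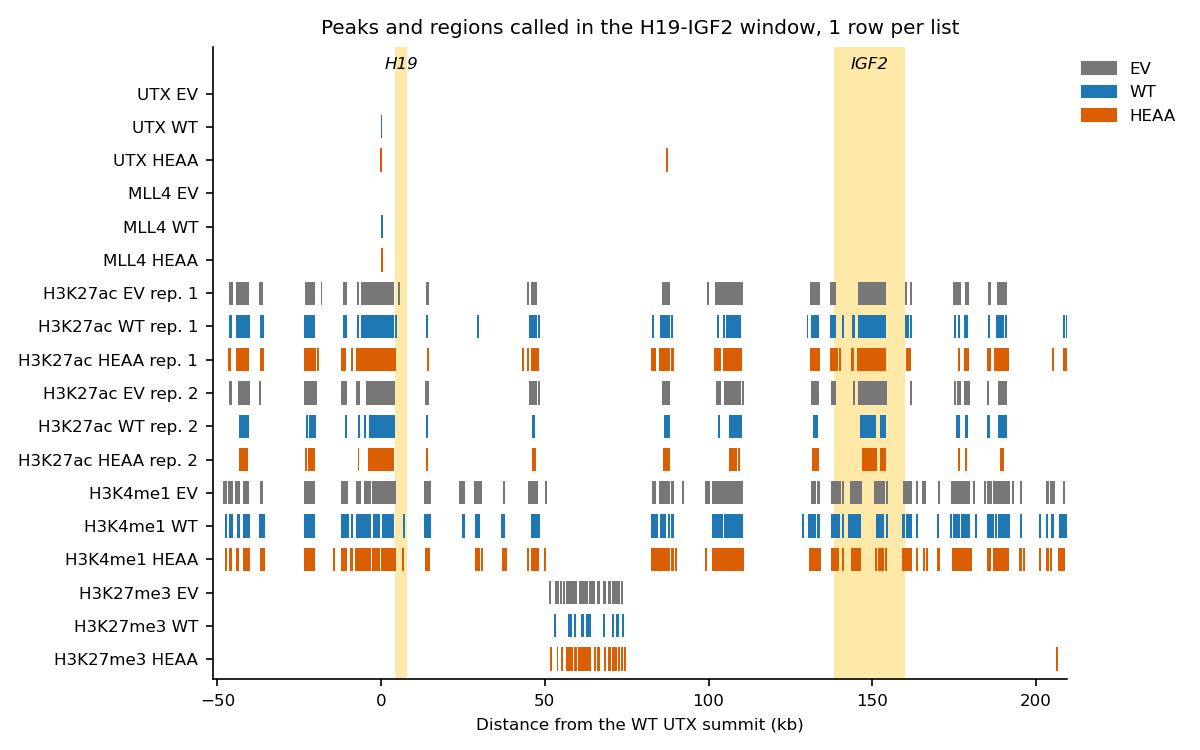
Called peaks and regions in the window, 1 row per list, against the distance from the WT UTX summit in kb. Yellow bands mark the H19 and IGF2 spans and colours the lines. UTX and MLL4 of WT and HEAA meet at 0 kb beside H19, 12 acetylated regions recur in all 6 libraries, and H3K27me3 forms a block between the genes.

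H3K4me1 over the UTX site was continuous in EV and interrupted in both WT and HEAA. EV had 1 region across it, chr11:2008779-2015917, 7.14 kb long and with 6.27-fold enrichment, at 107 of 138273 regions by fold. In WT the same stretch was called as chr11:2008791-2011191 (5.20-fold) and chr11:2011536-2015439 (5.97-fold), with a break of 344 bp. In HEAA it was called as chr11:2008782-2011061 (4.68-fold) and chr11:2011506-2016053 (5.38-fold), with a break of 444 bp. The lower end of the stretch nearly coincided in the 3 lines, and its upper end was farthest from the site in HEAA and nearest in WT. With 1 list per line these breaks have no replicate check. The shortest break in the window between EV and either UTX line, in either direction, was 306 bp, so the WT break was a short one.

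The breaks shared 314 bp, chr11:2011192-2011505, and lay over the UTX and MLL4 peaks. H3K4me1 regions held all 448 bp of the site in the EV line but 125 bp in WT and 155 bp in HEAA. The regions beside the breaks had a −log10 q of 8.65 and 10.9 in WT and of 9.16 and 10.7 in HEAA. A break shared by WT and HEAA inside an unbroken EV region was present at 175 of 1691 UTX sites (10.3%). Among all EV regions, 3026 of 138273 (2.19%) held one. The reverse, EV broken and WT and HEAA unbroken, touched 44 UTX sites (2.60%). The shares of sites and of EV regions have different units and were not matched for region width. The EV region at the site was number 670 of 138273 by width, and a wide region has more room for a break.

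Elsewhere in the window breaks were not shared between the UTX lines. WT had 8 breaks in all within unbroken EV regions and HEAA had 4, and the one at the UTX site was the only stretch of the window broken in both. The WT breaks fell in 6 of the 46 EV regions (13.0%, against 5.98% in the genome) and the HEAA breaks in 4 (8.70%, against 5.95%). The shared break was in 1 of 46, close to the 2.19% in the genome. EV in turn had 2 stretches that were broken there and unbroken in WT and HEAA, chr11:2005148-2006255 (1108 bp) and chr11:2171029-2171396 (368 bp). They lay in 2 of the 48 WT regions (4.17%, against 3.03% in the genome). Over the genome such reverse breaks numbered 5388 and those shared by WT and HEAA inside unbroken EV regions 3223. At the weak HEAA peak the order was another one: WT had a break of 575 bp, chr11:2098439-2099013, whereas EV (chr11:2096182-2099599) and HEAA (chr11:2093950-2099623) were unbroken. The EV list was the shortest of the H3K4me1 lists, with 138273 regions against 165794 in WT and 173344 in HEAA.

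**Figure D2:**
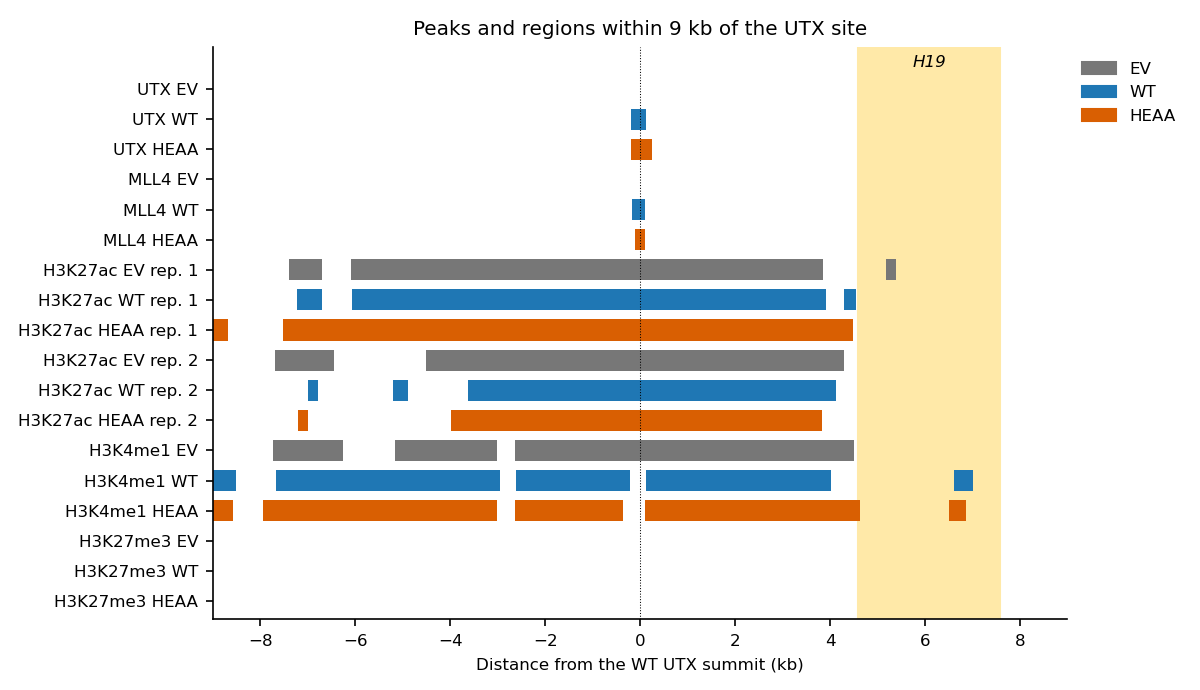
Peaks and regions within 9 kb of the UTX site, 1 row per list, against the distance from the WT UTX summit (dotted line) in kb, with the H19 span in yellow. The H3K4me1 rows of WT and HEAA have a gap of 344 bp and 444 bp at the summit that the EV row lacks, while every H3K27ac row is continuous there.

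Acetylation at the UTX site was called in every library, EV included. The region holding it was chr11:2005319-2015259 in EV replicate 1 (14.1-fold) and chr11:2006893-2015696 in EV replicate 2 (25.1-fold). In WT it was chr11:2005353-2015318 (17.4-fold) and chr11:2007794-2015535 (15.6-fold). In HEAA it was chr11:2003886-2015898 (12.0-fold) and chr11:2007435-2015243 (15.0-fold). The highest fold was thus in an EV library, and the EV range overlapped that of WT and that of HEAA. Both WT values were above both HEAA values. This difference rests on 2 libraries per line and was not tested. The fold order of the region in its own list ran from 73 of 45880 in EV replicate 2 to 1231 of 72700 in HEAA replicate 1.

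The site lay whole inside 1 H3K27ac region in each of the 6 libraries, so no library had a break there like that of H3K4me1. The same held for 930 of 1691 UTX sites (55.0%). Regions that shared at least 1 base were merged over the libraries, and the merged domain at the site, chr11:2003716-2015966, was 12.3 kb long. It was the widest in the window and ended within 1 kb of the H19 span.

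Over H19 itself little was called. The only H3K27ac region inside its span was chr11:2016585-2016811 of EV replicate 1, 227 bp long with 3.19-fold enrichment. H3K4me1 covered 401 bp of the span in WT, 415 bp in HEAA and 0 bp in EV. These bases belonged mainly to a weak merged region, chr11:2017924-2018422, with 2.51-fold enrichment in WT and 2.57-fold in HEAA. No UTX, MLL4 or H3K27me3 call touched the span in any line. On the upstream side of H19 the nearest region acetylated in all 6 libraries was chr11:2024872-2025997, with 2.57-fold to 4.00-fold enrichment, and H3K4me1 was called there in all 3 lines.

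IGF2 held the second widest acetylated domain of the window. The merged region, chr11:2156671-2165828, was 9.16 kb long and lay inside the gene's span. Its highest fold was 9.75 and 14.0 in the EV libraries, 12.0 and 9.37 in WT, and 10.5 and 7.93 in HEAA. It was 1 region in 4 libraries and was called as 2 pieces in replicate 2 of WT and of HEAA. The values of the lines overlapped.

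Of the 21 kb of the IGF2 span, H3K27ac covered 9.13 and 9.28 kb in EV (9.21 ± 0.103, SD, n = 2). It covered 10.5 and 6.60 kb in WT (8.53 ± 2.73, SD, n = 2) and 11.1 and 6.37 kb in HEAA (8.76 ± 3.37, SD, n = 2). Replicate 1 of WT and HEAA was above both EV libraries and replicate 2 below both. A further merged region, chr11:2148607-2150834, crossed the gene's lower edge. It was called in both EV libraries (4.08-fold and 3.91-fold) and in replicate 1 of WT (4.75-fold) and HEAA (4.86-fold), but in replicate 2 of neither. Shorter regions in the span, chr11:2151164-2151546, chr11:2152124-2152575 and chr11:2154944-2156069, were called in 1, 1 and 3 libraries.

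The cover of the IGF2 span by H3K4me1 was 9.85 kb for EV, 9.65 kb for WT and 8.08 kb for HEAA, and it took in the acetylated domain only in part. Inside the domain all 3 lines had a stretch with no H3K4me1. It ran over chr11:2158230-2162091 in EV (3.86 kb), chr11:2158117-2162535 in WT (4.42 kb) and chr11:2157875-2162211 in HEAA (4.34 kb). All 6 libraries were acetylated over chr11:2158250-2162091 (3.84 kb) in that stretch. No UTX, MLL4 or H3K27me3 call fell in the IGF2 span in any line. The hg19 exons and promoters of IGF2 were not used here, so the stretch was not placed within the gene.

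Across the window 27.8 kb were acetylated in all 6 libraries and 76.6 kb in any. Of the 27.8 kb, 5.48 kb (19.7%) were outside H3K4me1 of all 3 lines. Most of that was the IGF2 stretch. The next longest, chr11:1968233-1969257 (1.03 kb), was in the merged region chr11:1966976-1971313 toward the MRPL23 end of the window. That region had 14.9-fold and 22.7-fold enrichment in EV, 16.8-fold and 14.7-fold in WT, and 15.6-fold and 10.9-fold in HEAA, which put it next to the UTX-site domain in fold.

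The window held 33 merged H3K27ac regions, and no region was called in every library with a UTX construct and in none without, or the reverse. Of the 33, 12 were called in all 6 libraries (36.4%, against 31.8% of 81809 merged regions in the genome). Regions called in all 4 libraries with a UTX construct but in no EV library numbered 0 (0.54% in the genome), and those called in both EV libraries but no other numbered 0 as well (0.909%). With so small a share in the genome, 0 of 33 is near the background. By replicate 1 alone, 4 of the 33 were in WT and HEAA but not EV (12.0% in the genome) and 3 were in EV only (6.51%). By replicate 2 alone, 0 were in WT and HEAA but not EV (1.46%) and 5 were in EV only (10.6%). Single-library regions numbered 10 (28.9% in the genome).

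Differences within the WT and HEAA lines followed the replicate number, in the window as over the genome. There were 8 regions of 33 called in replicate 1 of both lines and in replicate 2 of neither (24.2%, against 22.0% in the genome). The reverse numbered 0 (0.169% in the genome). Both shares were near the background. Of these 8, 4 were called in both EV libraries. The replicate 2 lists of WT and HEAA were also shorter over the genome, with 40470 and 37298 regions against 63557 and 72700 in replicate 1, and the part of list length in this pattern was not tested. The widest regions apart from those at the UTX sites and IGF2 were chr11:2113163-2121941 (8.78 kb), chr11:2198561-2203268 (4.71 kb), chr11:1987739-1992113 (4.38 kb), chr11:1966976-1971313 (4.34 kb) and chr11:2056704-2059719 (3.02 kb). All were called in all 6 libraries. In the widest of them the fold was 9.07 and 7.61 in EV, 6.51 and 4.21 in WT, and 8.12 and 5.80 in HEAA. The region that held the weak HEAA peak, chr11:2096403-2099759, was also acetylated throughout, with 7.23-fold to 10.3-fold enrichment.

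**Figure D3:**
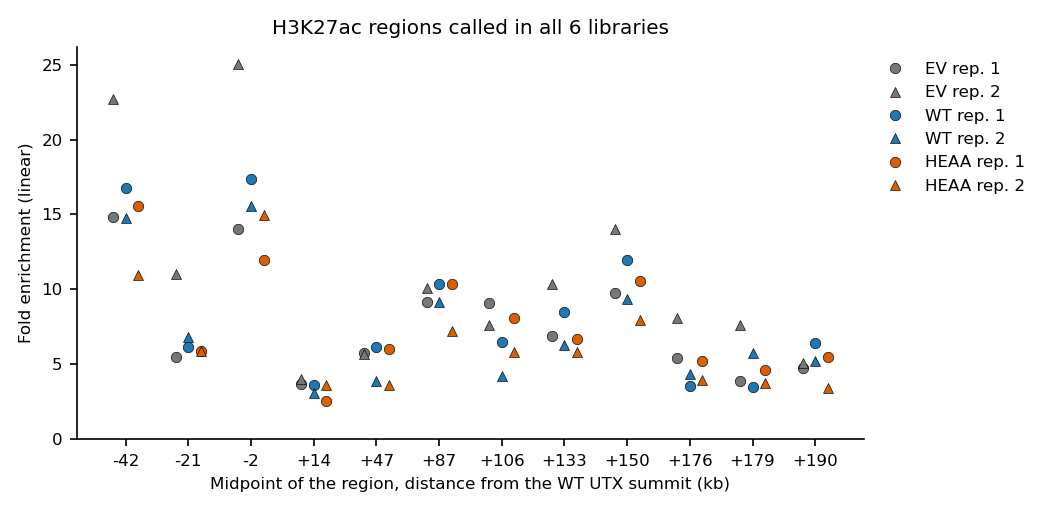
Fold enrichment (linear) of the 12 merged H3K27ac regions called in all 6 libraries, at the distance of their midpoint from the WT UTX summit in kb. Each point is the highest fold of 1 library, with colour for the line and shape for the replicate. The domain at the UTX site (-2 kb) reaches 25.1-fold in EV replicate 2, and no line is highest in all 12 regions.

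H3K27ac cover of the window was compared between lines over libraries, since this was the readout with more than 1 library per line. It was 57.4 and 54.2 kb in EV, 57.6 and 36.8 kb in WT, and 67.5 and 30.7 kb in HEAA. Replicate 1 of WT and HEAA was level with or above EV and replicate 2 was below both EV libraries. The mean was 55.8 ± 2.25 kb in EV (SD, n = 2) and 48.2 ± 17.3 kb in the 4 libraries with UTX. The difference was -7.61 kb (exact two-sided permutation test, p = 0.733, with 0.0667 the smallest p that 15 arrangements allow). In size it was above the SD of the EV libraries and below that of the libraries with UTX, which came from both UTX lines. Within replicate 1 the difference was 5.20 kb and within replicate 2 it was -20.4 kb, so its direction depended on the replicate.

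The active-site mutant was compared with the wild-type protein in the same way. WT averaged 47.2 ± 14.7 kb and HEAA 49.1 ± 26.0 kb (SD, n = 2 each), a difference of -1.89 kb (exact two-sided permutation test, p = 1, with 0.333 the smallest possible). It was -9.91 kb within replicate 1 and 6.13 kb within replicate 2, and it turned to 16.5 kb without HEAA replicate 1 and to 8.50 kb without WT replicate 2. Neither design can reach 0.05. Part of these shifts was shared by the whole lists. In replicate 1 the window's cover was 1.00 (WT) and 1.18 (HEAA) times that of EV while the cover of the list was 1.09 and 1.25 times. In replicate 2 the window stood at 0.680 and 0.567 and the list at 0.772 and 0.674. The list's length therefore moved with the window's cover. Scaled by list cover, the difference of UTX lines and EV was -5.93 kb (exact permutation p = 0.133), and with lists of equal size it was -11.6 kb (exact permutation p = 0.267). For WT and HEAA these values were 0.741 kb and -2.91 kb (exact permutation p = 1 for both).

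**Figure D4:**
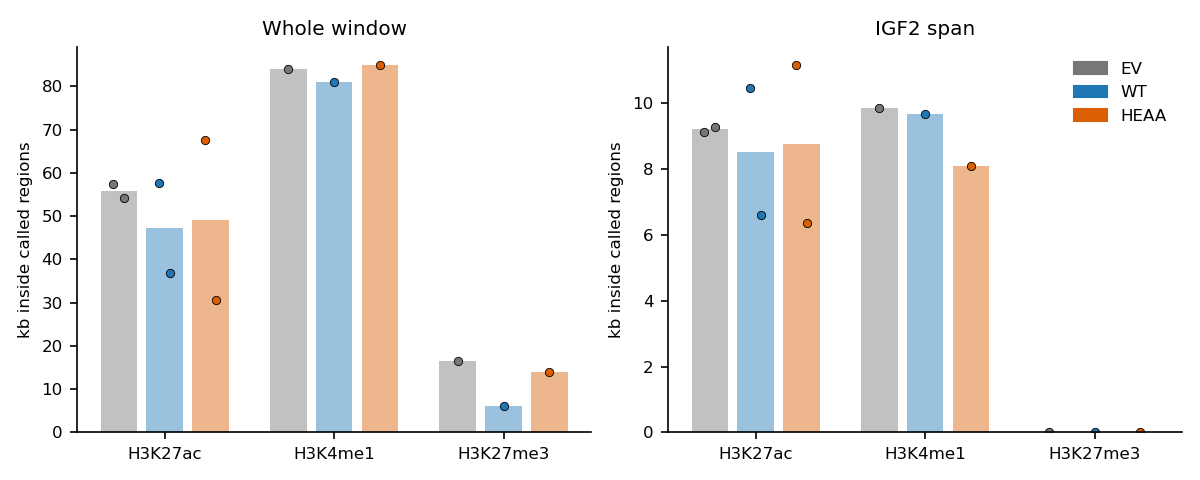
Cover by called regions in kb, over the whole window (left) and the IGF2 span (right), for each mark and line. Points are libraries and bars their mean, or the single value for H3K4me1 and H3K27me3. The H3K27ac points of WT and HEAA lie on both sides of the EV points, and the H3K27me3 bar of WT (6.17 kb) is the lowest of its 3.

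The window as a whole was rich in enhancer marks in every line. H3K27ac covered 50.7 kb of it on average over the 6 libraries, and of 11614 tiles of the same length across the genome 81 had at least as much (0.697%, tile median 2.47 kb). H3K4me1 covered 83.3 kb on average over the 3 lines, a level met by 65 tiles (0.56%, median 8.45 kb). H3K27me3 covered 12.2 kb, a level met by 4689 tiles (40.4%, median 7.05 kb). The shares are for means over libraries or lines, and the lowest H3K27ac library, HEAA replicate 2, covered 30.7 kb. Tiles were not matched for gene content or for sequence that can hold a call. The window was chosen for a strong UTX site, so the tiles describe it and test nothing.

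H3K4me1 cover was close in the 3 lines, with 84.0 kb in 46 regions in EV, 81.1 kb in 48 in WT and 84.9 kb in 46 in HEAA. Relative to EV this was 0.965 and 1.01 times, while the whole lists of WT and HEAA covered 1.14 and 1.18 times as much as that of EV. Of 46 EV regions, 38 met a region in WT (82.6% here, 81.1% in the genome) and 40 in HEAA (87.0%, against 83.8%). These shares were near the background.

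Merged over lines, the window held 48 H3K4me1 regions, of which 31 were in all 3 lines (64.6%, against 47.1% in the genome). EV alone had 4 (7.54% in the genome), which were chr11:2035088-2035415, chr11:2103253-2103456, chr11:2195655-2196029 and chr11:2204034-2204242. WT and HEAA without EV had 3 (13.5% in the genome). These were chr11:2001981-2002897, the weak region inside H19 named above, and chr11:2212298-2212678. None of the 7 was longer than 1 kb.

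H3K27me3 was confined in EV and WT to a single block between the genes, and its cover there was lowest in WT. The block, chr11:2062688-2086207, was 23.5 kb long and lay 43.7 kb from the H19 span and 63.8 kb from the IGF2 span. EV had 12 regions covering 16.4 kb of it (69.8%), with 2.06-fold to 2.72-fold enrichment. WT had 9 regions covering 6.17 kb (26.2%), with 2.15-fold to 3.07-fold enrichment. HEAA had 15 regions covering 13.5 kb (57.3%), with 1.80-fold to 2.71-fold enrichment, and a further region outside the block, chr11:2217600-2218091. The fold ranges of the lines overlapped.

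Most of the WT bases were also called in EV. The WT calls took in 33.0% of the EV bases of the block and the HEAA calls 70.0%, while 87.7% of the WT bases were inside EV calls. All 3 lines shared 4.63 kb. Of the 12 EV regions, 6 met a region in WT (50.0%, against 51.1% of EV regions in the genome). In HEAA 11 met one (91.7%, against 63.7%). By this count the WT share was near the background and the HEAA share was above it. The EV regions all lay in the single block, so they are not separate observations, and the HEAA list was the longest of the 3. The window's cover was 0.376 times that of EV in WT, where the whole list was at 0.704 times. In HEAA it was 0.850 times, where the list was at 1.05 times. The WT list was thus shorter over the genome as well. With the lists cut to equal size by q, the window's cover was 16.4 kb for EV, 6.17 kb for WT and 11.7 kb for HEAA. The WT list was the shortest, so the cut could not alter its value. No EV region of the window ranked low enough by q to be removed. The unchanged gap between EV and WT is therefore no check on list length.

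Merged over lines, the 14 H3K27me3 regions of the window included 5 in all 3 lines (25.7% in the genome) and 5 in EV and HEAA but not WT (35.7% here, 10.6% in the genome). Those in EV and HEAA but not WT all lay in the block, so they are not separate observations either. EV alone had 1, chr11:2067073-2067504 (21.0% in the genome), and WT and HEAA without EV had 0 (7.4%). No H3K27ac region of any library and no H3K4me1 region of the same line overlapped a region of the block. The calls were weak: their highest −log10 q was 3.31 for EV, 3.70 for WT and 3.06 for HEAA. With a minimum of 5 no call was left in any line. With a minimum of 2 the cover was 11.04 kb in EV, 2.43 kb in WT and 9.47 kb in HEAA.

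**Figure D5:**
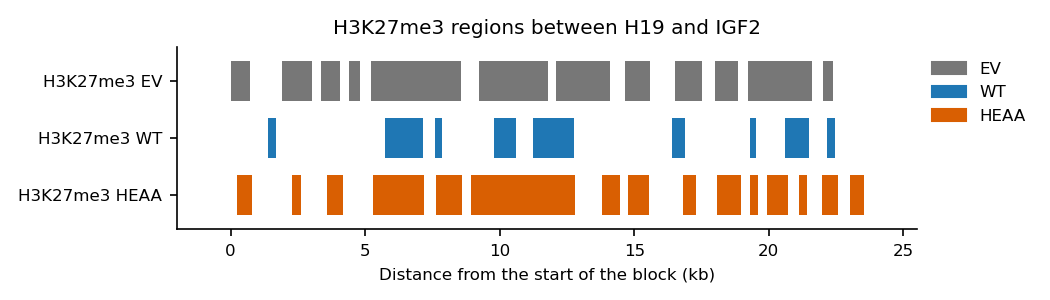
H3K27me3 regions of each line in the block between H19 and IGF2, against the distance from the start of the block in kb. EV fills 69.8% of the block, HEAA 57.3% and WT 26.2%, and the WT regions mostly fall where EV regions lie.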

How the data were processed

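ChIP-seq peak lists of 18 samples were used, and the 6 inputs were not analysed here. Per the submitters' processing notes, MACS2 was used with the builds hg19 and GRCh37. The MACS2 version, aligner and read filters: not given in the sources used here. Per the labels' protocols, micrococcal nuclease and sonication were combined for the UTX and MLL4 chromatin, and sonication alone served for the histone marks. For each peak the authors deposited a linear fold enrichment over background, the −log10 of its p-value and q-value, and a score that was not used. All q values were below 0.05 in the narrow lists (UTX, MLL4) and below 0.1 in the broad ones (histone marks). A site without a call is one below that threshold. Depth is unknown, and lists can lengthen with it.

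Intervals were compared with pandas 2.3.3 and NumPy 2.4.6 under Python 3.11.15 and drawn with matplotlib 3.10.9. Regions overlapped from 1 shared bp. Block regions were H3K27me3 calls of any line between H19 and IGF2. Breaks are gaps between consecutive H3K4me1 regions of a line that lie inside 1 region of another. The interval code was tested on simulated data. Exact two-sided permutation tests over libraries compared the H3K27ac cover. Whether the numbered libraries are separate cultures is not in the labels, so a p-value reflects the spread of these libraries alone, and that spread may be technical. Same-numbered libraries are not stated to share a batch or day, and the fit with the replicate block is an alternative.

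The text names H19 and IGF2, each UTX or MLL4 peak, the H3K27ac regions over a peak or gene, the 5 widest others, and H3K4me1 and H3K27me3 regions over these or specific to EV or to both UTX lines (the widest 5). The breaks, the H3K4me1-free stretch of IGF2 and the block were chosen after their values were seen. The members and lists were chosen with earlier results of these data known. Alternatives covered q thresholds, list size, scaling by list cover and left-out libraries.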

Additional observations from a re-analysis of the deposited data

How the results depend on the processing

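Of 86 values under alternatives, 71 kept the direction or size reported, 12 moved and 3 reversed. Some of the 71 could not have differed. No region crossed the window's edges, so whole widths gave the same cover, and a count of 0 stays 0 at a stricter threshold. The replicate block leaves the H3K27ac differences as they are and alters only p. For the tests a value was kept when its sign held, because no p could reach 0.05. The H3K27ac difference of UTX lines and EV (-7.61 kb) stayed below 0, from -14.1 to -1.79 kb when 1 library was left out, and was -7.61 kb with the replicate block (exact permutation p = 0.556, smallest 0.111). That of WT and HEAA ran from -20.3 to 16.5 kb when 1 library was left out, was 8.50 kb without WT replicate 2 and 16.5 kb without HEAA replicate 1, and was 0.741 kb after scaling by list cover. With the replicate block it was -1.89 kb (exact permutation p = 1, smallest 0.5). No difference passed a threshold with or without the block, and neither design could. H3K27ac regions in all libraries fell from 12 to 6 at a minimum −log10 q of 5. Regions in WT and HEAA but not EV numbered 0 to 4, and the reverse 3 to 8, when 1 replicate number was left out and the remaining libraries were merged anew, with 4 and 3 without replicate 2 and 0 and 8 without replicate 1. The merging anew divides regions, so the 8 are not counted among the 33. The H3K4me1 breaks at the UTX site stayed at 344 bp and 444 bp under q thresholds and equal list size, alternatives chosen after the data were seen, but these could not alter them, because the regions on either side have q values far past those limits. At a minimum −log10 q of 5 HEAA kept 1 UTX peak, H3K4me1 covered 54.5 kb in EV, 42.3 kb in WT and 55.2 kb in HEAA, and H3K27me3 covered 0 kb in all 3 lines. At a minimum of 2, H3K27me3 covered 2.43 kb in WT. The cause of these changes was not tested beyond the fewer regions that a stricter threshold leaves. Depth is unknown, so an uncalled site may carry signal below the threshold.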

Other observations

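Some of the window carried no call in any of the 18 lists. The longest such stretch, chr11:2122302-2140003, was 17.7 kb long and lay between the 8.78 kb acetylated region and IGF2. The next, chr11:1976007-1987738, was 11.7 kb long, and chr11:2026709-2035087 (8.38 kb) lay on the upstream side of H19.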
